A study of Mus musculus with 12 samples.

Results

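DNA replication and S phase genes were followed through 12 RNA-seq libraries of primary mouse lung endothelial cells. The 46 members were chosen by gene symbol to cover helicase loading and activation, the replicative polymerases and primase, the sliding clamp and its loader, single-strand binding and Okazaki fragment joining, nucleotide supply, chromatin copying, and the E2F and cyclin E regulators. All 46 were found among the 23422 genes of the deposited table, and all 46 passed the filter on low values (1 FPKM or more on average), as did 11378 genes. The groups of 3 libraries were MLK2-/-MLK3-/- (double knockout) cells in hypoxia (1% oxygen for 90 min), double knockout cells in normoxia (21% oxygen), wild type C57BL/6J cells in hypoxia and wild type cells in normoxia. MLK2 and MLK3 are mixed-lineage kinases encoded by Map3k10 and Map3k11. Every group was a cultured primary monolayer in serum with endothelial mitogen, and no label tells whether libraries within a group are from different mice or cultures, so the p-values measure the spread between these libraries.

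At replication origins, CDC6 and CDT1 load the MCM2 to MCM7 ring onto DNA before S phase. MCM10, CDC45 and the GINS complex then turn the ring into a moving helicase. DNA polymerase alpha and primase lay down primers, polymerase epsilon copies mainly the leading strand and polymerase delta mainly the lagging strand, both with the PCNA clamp that replication factor C places on DNA. Many of these genes are targets of E2F transcription factors, which act from late G1, when cyclin E and its kinase partner are active. Endothelial cells in a vessel wall are mostly quiescent, whereas cultured endothelial cells given mitogens cycle.

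The targeted genes were checked first. Map3k10 had 1.34, 1.15 and 1.02 FPKM in double knockout hypoxia, 0.145, 0.169 and 0.131 in double knockout normoxia, 19.1, 16.6 and 16.7 in wild type hypoxia and 18.9, 18.3 and 19.2 in wild type normoxia. Map3k11 had 12.2, 11.5 and 11.2 FPKM in double knockout hypoxia, 11.5, 10.9 and 11.1 in double knockout normoxia, 32.4, 34.4 and 31.9 in wild type hypoxia and 36.4, 33.8 and 33.95 in wild type normoxia. Both were lower in every double knockout library than in any wild type library, and some Map3k11 RNA was still measured in the knockout. Map3k10 was higher in double knockout hypoxia than in double knockout normoxia (log2 fold change 0.92 on log2(FPKM + 1), limma adjusted p under 0.05). Its hypoxia response also differed from that of wild type (difference 1.02). The part of this remaining RNA in the comparisons of double knockout cells was not tested. The 6 hypoxia-induced control genes were higher in hypoxia in both genotypes, and 11 of 12 endothelial markers were at or above 1 FPKM, with Vwf below it. The summed level of 7 macrophage markers was 62.4 to 75.8 FPKM over the double knockout libraries and 21.8 to 31.0 FPKM over the wild type libraries, carried mainly by Lyz2, while Ptprc, Adgre1 and Csf1r averaged under 1 FPKM. The 8 mural and fibroblast markers summed to 8.52 to 10.5 FPKM in double knockout and 3.69 to 6.01 FPKM in wild type libraries, with Pdgfra, Pdgfrb, Col1a1, Col1a2, Des and Lum under 1 FPKM.

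Per length of transcript, Pcna was the most abundant member, with a mean of 132.8 FPKM over the 12 libraries, and E2f8 the least, with 1.24 FPKM. The 6 subunits of the MCM ring, which assemble in equal number, spanned a 2.99-fold range of RNA level from Mcm4 (14.4 FPKM) to Mcm6 (43.2 FPKM). The helicase activation genes ran between 3.57 FPKM (Mcm10) and 29.3 FPKM (Gins4), and the polymerase and primase genes between 4.51 FPKM (Pole2) and 26.1 FPKM (Pole). Replicates were close, with a median coefficient of variation over the members of 6.10% in double knockout hypoxia, 5.91% in double knockout normoxia, 5.30% in wild type hypoxia and 5.50% in wild type normoxia.

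Wild type normoxia was the group with the highest replication gene RNA. The FPKM of the 46 members summed to 877 to 933 in double knockout hypoxia, 886 to 952 in double knockout normoxia, 857 to 905 in wild type hypoxia and 969 to 1006 in wild type normoxia. The 3 wild type normoxia libraries stood above the other 9, which overlapped. In 38 of 46 members the highest of the 4 group means was that of wild type normoxia, whereas wild type normoxia had the highest mean in 23.3% of all genes tested. The lowest mean was in double knockout hypoxia for 9 members, in double knockout normoxia for 17, in wild type hypoxia for 19 and in wild type normoxia for 1, against 31.8%, 28.4%, 17.9% and 22.0% of all genes tested. Comparisons that use the wild type normoxia libraries therefore share the samples that set this pattern.

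**Figure D1:**
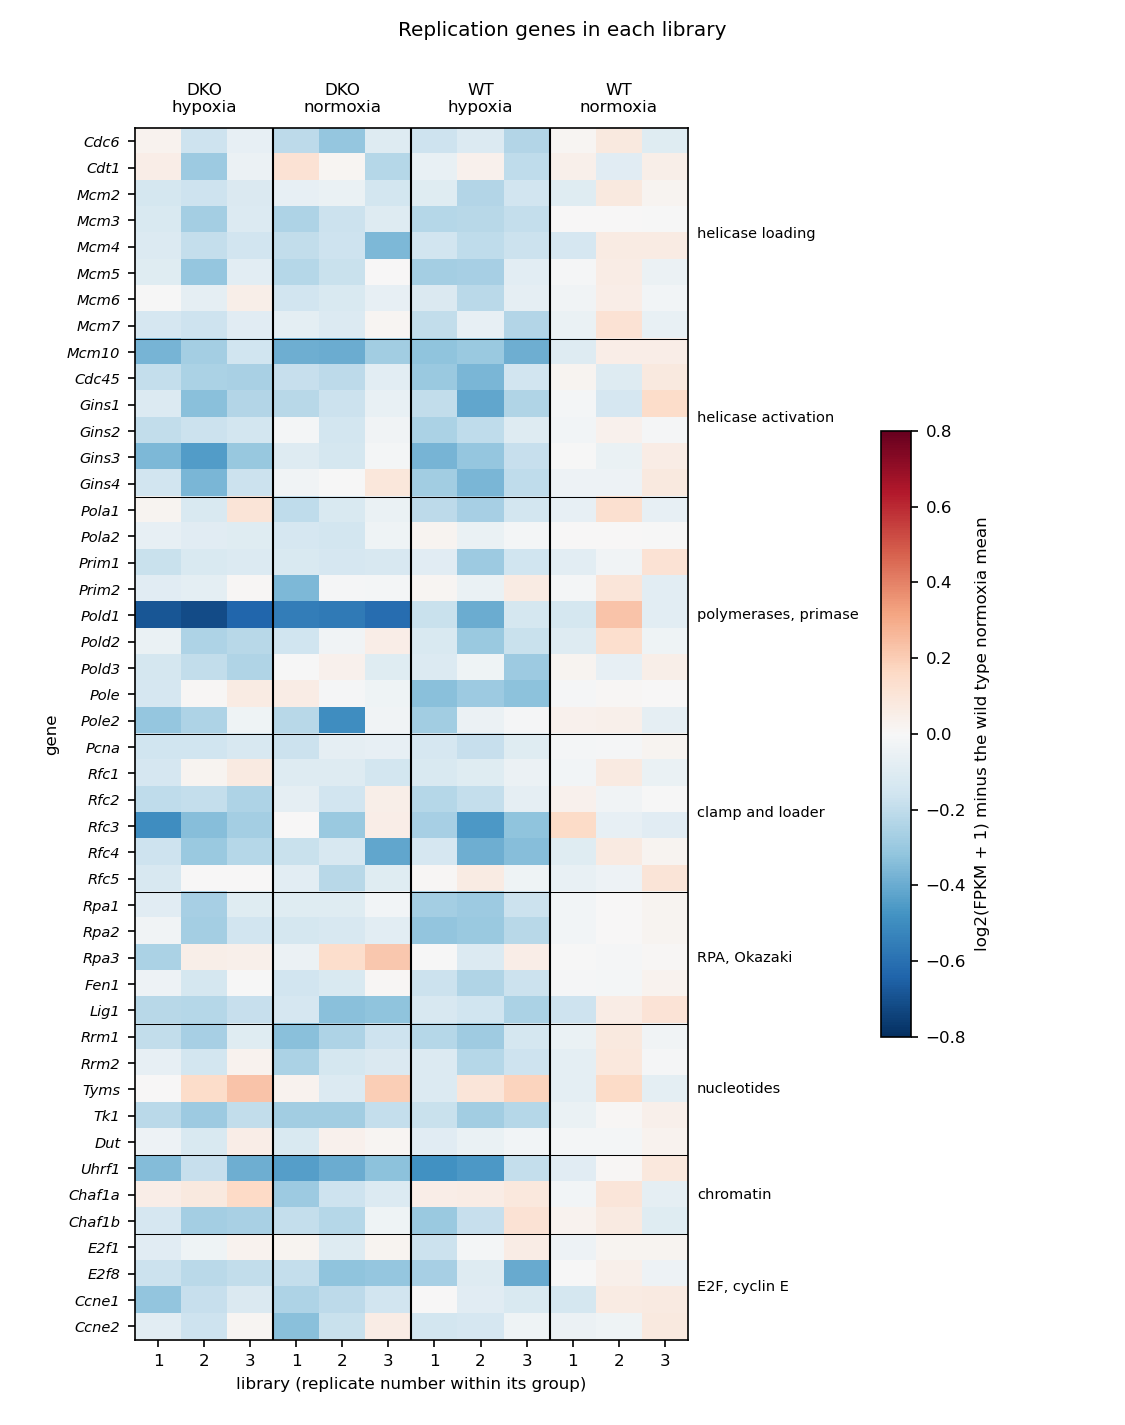
Each row is a replication gene, grouped by role, and each column a library, with double knockout hypoxia, double knockout normoxia, wild type hypoxia and wild type normoxia in turn (3 libraries each). The colour is log2(FPKM + 1) minus the wild type normoxia mean of that gene; most cells outside wild type normoxia are blue (lower), 38 of 46 genes have their highest mean in wild type normoxia, and Pold1 is dark blue in all 6 double knockout libraries.

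In wild type cells, 90 min of hypoxia lowered RNA of 18 of the 46 replication genes and raised none. The falls were small, with log2 fold changes of the called genes between -0.38 (Uhrf1) and -0.14 (Pcna). All 6 helicase activation genes fell, as did 2 of 8 helicase loading genes, 1 of 9 polymerase and primase genes, 3 of 6 clamp and loader genes, 3 of 5 single-strand binding and lagging strand genes, 2 of 5 nucleotide supply genes, 1 of 3 chromatin genes and 0 of 4 E2F and cyclin E genes. Calls were made with limma on log2(FPKM + 1), on which scale every fold change here is given, with Benjamini-Hochberg adjustment over all 11378 genes and a threshold of 0.05. Of all genes tested, 10.4% were called lower and 10.5% higher in this comparison. The log2 fold change was negative in 42 of 46 members, with a median of -0.18 against 0.00 over all genes tested. All 3 hypoxia libraries lay below all 3 normoxia libraries in 30 members, an arrangement that 19.4% of all genes tested had. At an unadjusted p under 0.05, 31 members were lower and 0 higher, against 17.6% and 16.8% of all genes tested. In bulk RNA, fewer cells in S phase and less RNA per S phase cell cannot be told apart. The count of lower calls was 11 without wild type normoxia library 3 and 11 without wild type hypoxia library 2, with Cdc45, Gins1, Gins2, Mcm2, Pcna, Rfc4 and Fen1 lost in both cases. Over all genes tested, lower calls numbered 1178 with all libraries, 722 without that normoxia library and 704 without that hypoxia library. Gins3, Gins4, Mcm3, Pole, Rpa1, Rpa2 and Tk1 were called lower under every alternative processing that was run. The deposited FPKM summed to 704518 to 706002 in wild type hypoxia libraries and 665901 to 685392 in wild type normoxia libraries. With library medians made equal 16 members were called lower, and with quantile normalization 20. Lower calls over all genes tested numbered 1070 with equal medians and 1258 with quantile normalization.

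**Figure D2:**
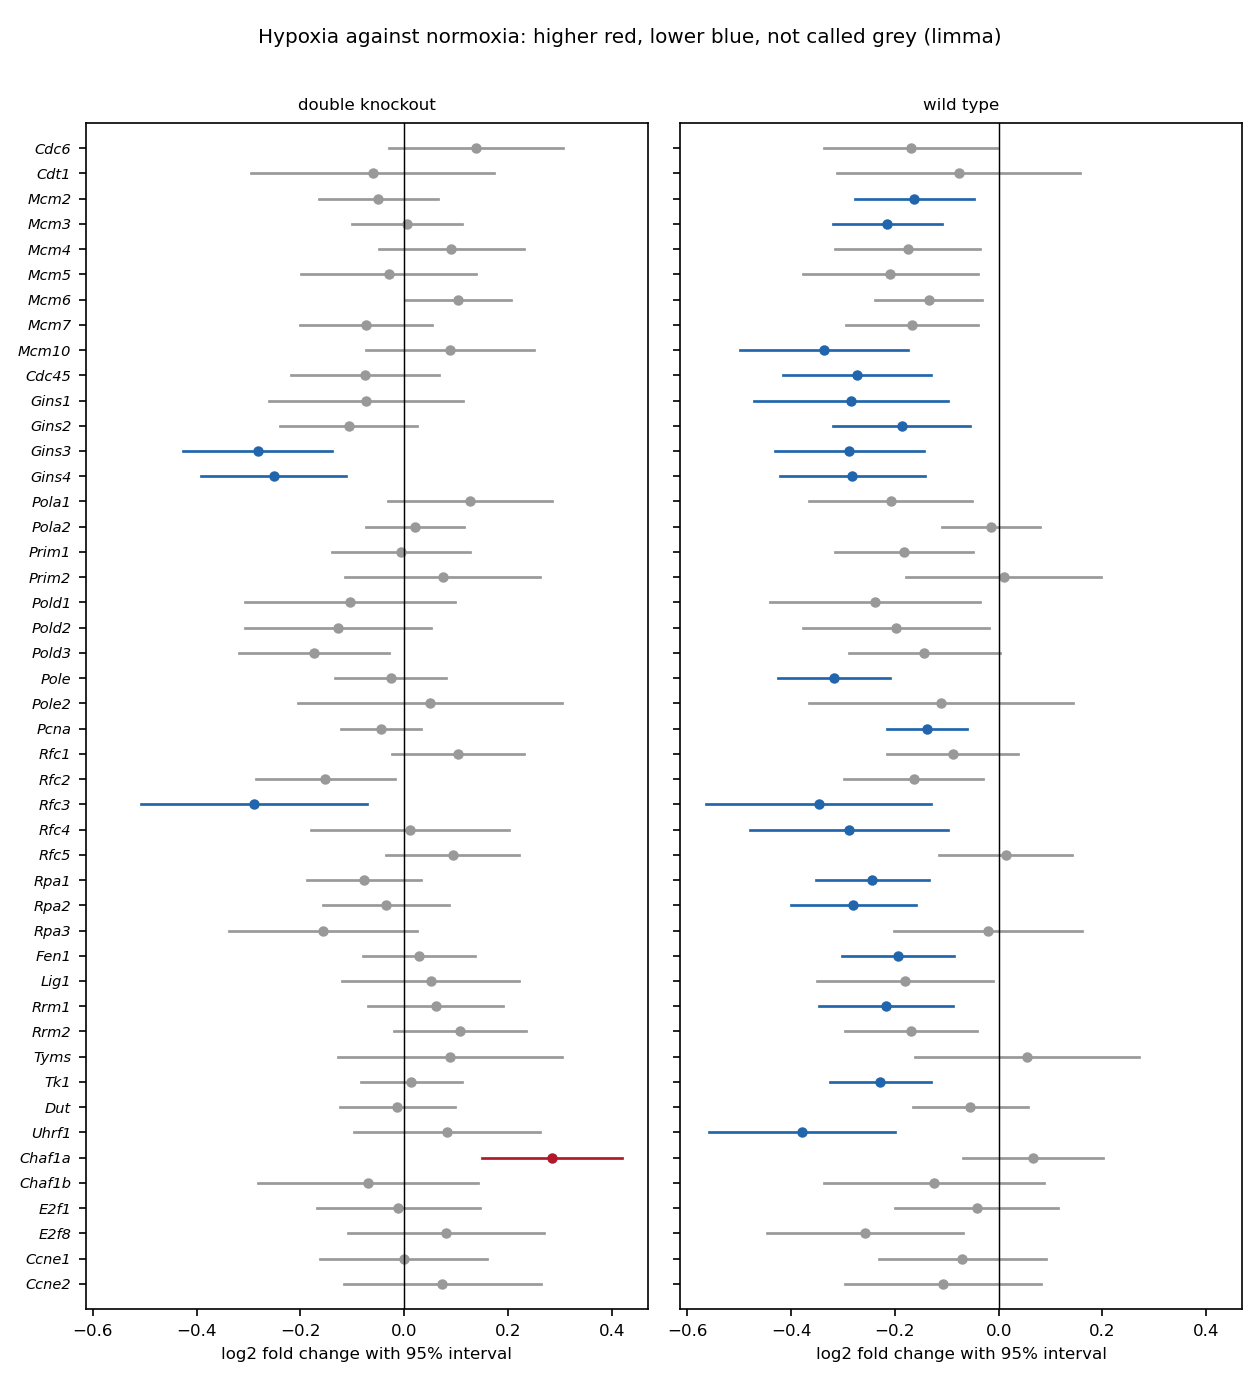
Log2 fold change of hypoxia against normoxia for each replication gene in double knockout cells (left) and wild type cells (right), on log2(FPKM + 1), with points for estimates and lines for 95% intervals of the limma fit (3 libraries a group). In the double knockout 1 gene was called higher (red) and 3 lower (blue); in wild type 18 were called lower and none higher.

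Promoters are shown for a few members because E2F sites are a known shared feature of many of these genes. RefSeq windows of 250 bases before to 50 bases after each start (GRCm38.p6) were matched by symbol for 38 of the 46 members, as 44 windows. The E2F motif was searched on both strands in 4 spellings, TTTCCCGC, TTTCGCGC, TTTGCCGC and TTTGGCGC; some of these overlap each other when read on opposite strands. The motif was present in 14 of the 38 members (36.8%), against 2.61% of the 27025 genes with a window. It was present in 4 of the 14 members called lower in wild type hypoxia that have a window and in 10 of the 24 not called. The stretches below run from 200 bases before to 30 bases after the start on the strand of the gene, with the motif in capitals. The members that fell are Gins3 (chr8:95633359-95633588, plus strand), Mcm3 (chr1:20820283-20820512, minus strand), Rfc3 (chr5:151651179-151651408, minus strand) and Uhrf1 (chr17:56304113-56304342, plus strand). Mcm5 (chr8:75109309-75109538, plus strand) and Mcm6 (chr1:128359676-128359905, minus strand) hold the motif and were not called.
Gins3: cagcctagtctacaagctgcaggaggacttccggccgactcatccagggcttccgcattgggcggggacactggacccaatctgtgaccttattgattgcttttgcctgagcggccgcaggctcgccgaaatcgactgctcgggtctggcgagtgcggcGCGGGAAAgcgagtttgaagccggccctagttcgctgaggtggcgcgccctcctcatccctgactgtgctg
Mcm3: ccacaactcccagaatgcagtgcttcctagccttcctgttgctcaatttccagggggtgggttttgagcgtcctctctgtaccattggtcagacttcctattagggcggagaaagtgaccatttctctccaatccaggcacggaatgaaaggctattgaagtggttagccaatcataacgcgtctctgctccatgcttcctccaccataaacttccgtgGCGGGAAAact
Rfc3: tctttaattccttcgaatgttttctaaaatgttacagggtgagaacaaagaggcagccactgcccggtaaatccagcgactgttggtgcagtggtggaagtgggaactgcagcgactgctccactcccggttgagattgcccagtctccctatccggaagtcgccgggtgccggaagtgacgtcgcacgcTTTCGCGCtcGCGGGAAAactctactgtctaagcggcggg
Uhrf1: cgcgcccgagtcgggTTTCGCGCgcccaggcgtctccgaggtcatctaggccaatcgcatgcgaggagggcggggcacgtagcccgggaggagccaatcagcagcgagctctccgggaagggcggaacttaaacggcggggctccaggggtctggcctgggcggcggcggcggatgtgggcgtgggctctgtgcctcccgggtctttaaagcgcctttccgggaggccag
Mcm5: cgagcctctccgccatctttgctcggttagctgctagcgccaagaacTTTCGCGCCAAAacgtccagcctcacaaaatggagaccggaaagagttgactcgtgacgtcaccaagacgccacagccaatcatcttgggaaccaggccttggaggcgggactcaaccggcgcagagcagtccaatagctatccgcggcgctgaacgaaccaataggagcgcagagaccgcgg
Mcm6: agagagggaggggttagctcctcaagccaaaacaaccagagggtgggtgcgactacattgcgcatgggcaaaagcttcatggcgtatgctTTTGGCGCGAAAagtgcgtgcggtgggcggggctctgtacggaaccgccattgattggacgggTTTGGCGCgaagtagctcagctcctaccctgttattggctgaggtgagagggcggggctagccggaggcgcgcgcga

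In Mcm5 the run in capitals holds overlapping matches, and in Mcm6 the first run does so and another match lies closer to the start. In Mcm3 a further match lies past the printed stretch, and a run printed as GCGGGAAA is TTTCCCGC on the other strand. The other members with the motif were Cdc6, Cdt1, Lig1, Mcm7, Pola1, Pold1, Pold3 and Pole2. The CCAAT box, bound by NF-Y, was in 22 of 38 members, against 41.1% of genes, and in 11 of the 14 that fell with a window and 11 of the 24 not called. The hypoxia response core, ACGTG or GCGTG, was in 25 of 38 members, against 46.7% of genes, and in 7 of 14 that fell and 18 of 24 not called. The CHR element of late cell cycle genes, TTTGAA or TTCGAA, was in 8 of 38 members, against 21.7% of genes, and in 5 of 14 that fell and 3 of 24 not called. A match is a run of letters and was not tested as a site.

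Of the helicase loading genes, 2 subunits of the MCM ring passed the test in wild type hypoxia, Mcm3 and Mcm2. Mcm3, whose values were chosen for showing after they were seen, had 31.7, 28.4 and 31.96 FPKM in double knockout hypoxia, 29.00, 30.6 and 32.1 in double knockout normoxia, 29.4, 29.5 and 30.1 in wild type hypoxia and 34.7, 34.6 and 34.5 in wild type normoxia. Its wild type hypoxia libraries lay below its wild type normoxia libraries without overlap (log2 fold change -0.21, SE 0.05, adjusted p = 0.00961), while its double knockout libraries overlapped between oxygen levels. Mcm5, another ring subunit, had 25.4, 21.8 and 25.6 FPKM in double knockout hypoxia, 23.1, 23.95 and 27.2 in double knockout normoxia, 22.3, 22.4 and 25.6 in wild type hypoxia and 26.99, 28.4 and 26.2 in wild type normoxia. The wild type groups of Mcm5 did not overlap either, but the difference missed the threshold (log2 fold change -0.21, SE 0.08, adjusted p = 0.0761). Mcm2 was called lower with a log2 fold change of -0.16 (adjusted p = 0.0468), a call lost under 16 of 22 alternatives (highest adjusted p = 0.165). Mcm4, Mcm6 and Mcm7 had log2 fold changes of -0.18, -0.14 and -0.17 and were not called. Cdc6, the loading ATPase, had 4.61, 3.91 and 4.26 FPKM in double knockout hypoxia, 3.77, 3.45 and 4.13 in double knockout normoxia, 3.90, 4.11 and 3.69 in wild type hypoxia and 4.58, 4.82 and 4.16 in wild type normoxia. The wild type hypoxia values of Cdc6 lay below the wild type normoxia values, and the difference was not called (log2 fold change -0.17, SE 0.08, adjusted p = 0.14). Cdt1, its loading partner, overlapped between all groups, with a wild type log2 fold change of -0.08 (95% interval -0.31 to 0.16).

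The helicase activation genes were the role group in which every member fell in wild type hypoxia. Mcm10, which is needed to start unwinding at the loaded ring, had 3.14, 3.45 and 3.81 FPKM in double knockout hypoxia, 3.09, 3.07 and 3.43 in double knockout normoxia, 3.29, 3.36 and 3.10 in wild type hypoxia and 3.99, 4.56 and 4.56 in wild type normoxia. Wild type normoxia stood above the other 3 groups, and hypoxia lowered Mcm10 in wild type (log2 fold change -0.34, SE 0.07, adjusted p = 0.0085). Gins3 had 5.61, 5.20 and 5.87 FPKM in double knockout hypoxia, 6.89, 6.67 and 7.38 in double knockout normoxia, 5.54, 5.83 and 6.46 in wild type hypoxia and 7.44, 7.15 and 7.81 in wild type normoxia. Gins4, also a GINS subunit, had 28.5, 24.5 and 28.1 FPKM in double knockout hypoxia, 31.2, 31.7 and 33.98 in double knockout normoxia, 26.1, 24.5 and 27.5 in wild type hypoxia and 30.9, 30.95 and 33.7 in wild type normoxia. In both subunits the hypoxia libraries lay below the normoxia libraries in each genotype without overlap. The wild type falls were of -0.29 for Gins3 (adjusted p = 0.00989) and -0.28 for Gins4 (adjusted p = 0.00954). Cdc45 fell by 0.27 (adjusted p = 0.0122), Gins1 by 0.28 (adjusted p = 0.0357) and Gins2 by 0.19 (adjusted p = 0.0467) on the log2 scale in wild type hypoxia. The Cdc45 call was lost in 2 of 22 alternatives, that of Gins1 in 6 of 22 and that of Gins2 in 15 of 21, with highest adjusted p of 0.0556, 0.133 and 0.161. All 3 were lost without wild type normoxia library 3 and without wild type hypoxia library 2, where Mcm10, Gins3 and Gins4 were still called.

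Pole, the catalytic subunit of polymerase epsilon, gave the smallest adjusted p of any member. It had 24.96, 27.7 and 28.8 FPKM in double knockout hypoxia, 28.7, 27.4 and 26.8 in double knockout normoxia, 21.7, 22.4 and 21.7 in wild type hypoxia and 27.3, 27.7 and 27.6 in wild type normoxia. The wild type hypoxia libraries lay below all 9 others, and hypoxia lowered Pole in wild type cells (log2 fold change -0.32, SE 0.05, adjusted p = 0.00119). Its accessory subunit Pole2 was not called (-0.11, 95% interval -0.37 to 0.14). Neither the primase genes Prim1 (-0.18) and Prim2 (0.01) nor the polymerase alpha genes Pola1 (-0.21) and Pola2 (-0.01) passed the test. The polymerase delta genes Pold1 (-0.24), Pold2 (-0.20) and Pold3 (-0.14) did not pass it in wild type hypoxia.

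Of the clamp and its loader, Pcna had 127, 127 and 130 FPKM in double knockout hypoxia, 126, 135 and 135 in double knockout normoxia, 129, 125 and 133 in wild type hypoxia and 140, 141 and 145 in wild type normoxia. Pcna fell in wild type hypoxia by less than any other called member (log2 fold change -0.14, SE 0.04, adjusted p = 0.0167), and the call was lost without wild type normoxia library 3, wild type hypoxia library 1 or wild type hypoxia library 2 (highest adjusted p = 0.0725). Rfc3, a small loader subunit, had 10.4, 11.7 and 12.3 FPKM in double knockout hypoxia, 15.1, 12.1 and 15.7 in double knockout normoxia, 12.4, 10.7 and 11.9 in wild type hypoxia and 16.9, 14.3 and 14.1 in wild type normoxia. The wild type groups did not overlap (log2 fold change -0.35, SE 0.10, adjusted p = 0.0291), and the call was lost without wild type normoxia library 1 or wild type hypoxia library 2 (highest adjusted p = 0.107). Rfc4 also fell (-0.29, adjusted p = 0.0363), with the call lost in 7 of 22 alternatives (highest adjusted p = 0.257). Rfc1, Rfc2 and Rfc5 had log2 fold changes of -0.09, -0.16 and 0.01 and were not called.

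The large and middle subunits of replication protein A, which coats single-stranded DNA, fell in wild type hypoxia. Rpa1 had 48.6, 43.05 and 48.4 FPKM in double knockout hypoxia, 48.4, 48.3 and 51.00 in double knockout normoxia, 42.8, 42.2 and 46.01 in wild type hypoxia and 51.1, 51.9 and 52.5 in wild type normoxia. Rpa2 had 22.4, 18.7 and 20.4 FPKM in double knockout hypoxia, 20.7, 20.9 and 21.5 in double knockout normoxia, 18.1, 18.4 and 19.4 in wild type hypoxia and 22.5, 22.9 and 23.2 in wild type normoxia. In both genes the wild type hypoxia libraries lay below the wild type normoxia libraries (Rpa1: log2 fold change -0.24, SE 0.05, adjusted p = 0.00592; Rpa2: log2 fold change -0.28, SE 0.06, adjusted p = 0.00471). The smallest subunit, Rpa3, was not called (-0.02, 95% interval -0.20 to 0.16). Fen1, which trims Okazaki fragments, fell by 0.19 (adjusted p = 0.0174), a call lost without wild type normoxia library 3 or wild type hypoxia library 2 (highest adjusted p = 0.0705). Lig1, which seals them, was not called (-0.18).

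Of the nucleotide supply genes, Tk1, the thymidine kinase of the salvage pathway, had 24.96, 23.7 and 25.4 FPKM in double knockout hypoxia, 23.9, 23.9 and 25.5 in double knockout normoxia, 25.7, 23.9 and 24.8 in wild type hypoxia and 28.1, 29.5 and 30.03 in wild type normoxia. The 3 wild type normoxia libraries stood above the other 9, and hypoxia lowered Tk1 in wild type (log2 fold change -0.23, SE 0.04, adjusted p = 0.00452). Rrm1, the large subunit of ribonucleotide reductase, had 33.1, 31.6 and 35.6 FPKM in double knockout hypoxia, 30.1, 32.03 and 33.9 in double knockout normoxia, 32.5, 31.2 and 34.6 in wild type hypoxia and 36.8, 40.5 and 37.4 in wild type normoxia. It fell in wild type hypoxia (log2 fold change -0.22, SE 0.06, adjusted p = 0.0237), and the call was lost without wild type normoxia library 2, wild type hypoxia library 1 or wild type hypoxia library 2 (highest adjusted p = 0.0925). Rrm2, the small subunit, whose level follows S phase, had 31.1, 29.4 and 33.4 FPKM in double knockout hypoxia, 27.3, 29.6 and 30.02 in double knockout normoxia, 30.2, 27.8 and 28.97 in wild type hypoxia and 30.96, 34.7 and 32.5 in wild type normoxia. The wild type groups of Rrm2 did not overlap and the difference was not called (log2 fold change -0.17, SE 0.06, adjusted p = 0.0609). Tyms and Dut, which act in thymidylate synthesis, had wild type log2 fold changes of 0.05 and -0.05 and were not called.

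Uhrf1, which recruits maintenance DNA methylation to newly copied DNA, had 16.8, 18.98 and 16.3 FPKM in double knockout hypoxia, 15.7, 16.2 and 17.1 in double knockout normoxia, 15.2, 15.5 and 18.9 in wild type hypoxia and 20.3, 21.8 and 23.1 in wild type normoxia. It had the most negative log2 fold change of any member in wild type hypoxia on the log2(FPKM + 1) scale (log2 fold change -0.38, SE 0.08, adjusted p = 0.00787), on which low genes are shrunk. In mean FPKM its wild type hypoxia level was 76.1% of normoxia, against 74.3% for Mcm10 and 73.4% for E2f8, which was not called. In Uhrf1, wild type hypoxia library 3 was the closest to normoxia. The deposited table splits Uhrf1 over 5 transcripts, and the most abundant one, 54.1% of its level, was not called on its own (adjusted p = 0.188). Chaf1a and Chaf1b, subunits of the histone chaperone CAF-1, were not called in wild type hypoxia (0.07 and -0.12).

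None of the E2F and cyclin E genes passed a test in any comparison of the main fit. Without a variance trend, E2f8 was called in wild type hypoxia and between genotypes in normoxia. E2f8 was also called in wild type hypoxia without wild type hypoxia library 2, and between genotypes in normoxia with array weights. Without wild type normoxia library 1, Ccne1 was called between genotypes in normoxia. E2f1 was called in double knockout hypoxia with its most abundant transcript (1.35 FPKM, against 2.24 in normoxia), while its other transcript had 2.02 against 1.16. E2f1, an activating E2F, had 3.19, 3.37 and 3.55 FPKM in double knockout hypoxia, 3.53, 3.15 and 3.53 in double knockout normoxia, 2.97, 3.42 and 3.65 in wild type hypoxia and 3.34, 3.53 and 3.53 in wild type normoxia. The 4 groups of E2f1 overlapped, and the 95% interval of its wild type response was -0.20 to 0.11 (limma, adjusted p = 0.719). E2f8, a repressive E2F, had 1.25, 1.18 and 1.20 FPKM in double knockout hypoxia, 1.21, 1.02 and 1.04 in double knockout normoxia, 1.10, 1.36 and 0.91 in wild type hypoxia and 1.52, 1.60 and 1.46 in wild type normoxia. Its wild type groups did not overlap, with a difference that missed the threshold (log2 fold change -0.26, SE 0.09, adjusted p = 0.0544), and at this level the pseudocount of 1 shrinks its fold change. Ccne1 had 5.53, 6.15 and 6.51 FPKM in double knockout hypoxia, 5.84, 6.02 and 6.31 in double knockout normoxia, 7.14, 6.64 and 6.49 in wild type hypoxia and 6.37, 7.53 and 7.57 in wild type normoxia. Ccne2 had 13.3, 12.6 and 14.4 FPKM in double knockout hypoxia, 11.04, 12.4 and 14.8 in double knockout normoxia, 12.7, 12.8 and 13.8 in wild type hypoxia and 13.7, 13.8 and 15.02 in wild type normoxia. Both cyclin E genes overlapped between wild type hypoxia and normoxia, with log2 fold changes of -0.07 (adjusted p = 0.542) and -0.11 (adjusted p = 0.416).

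**Figure D3:**
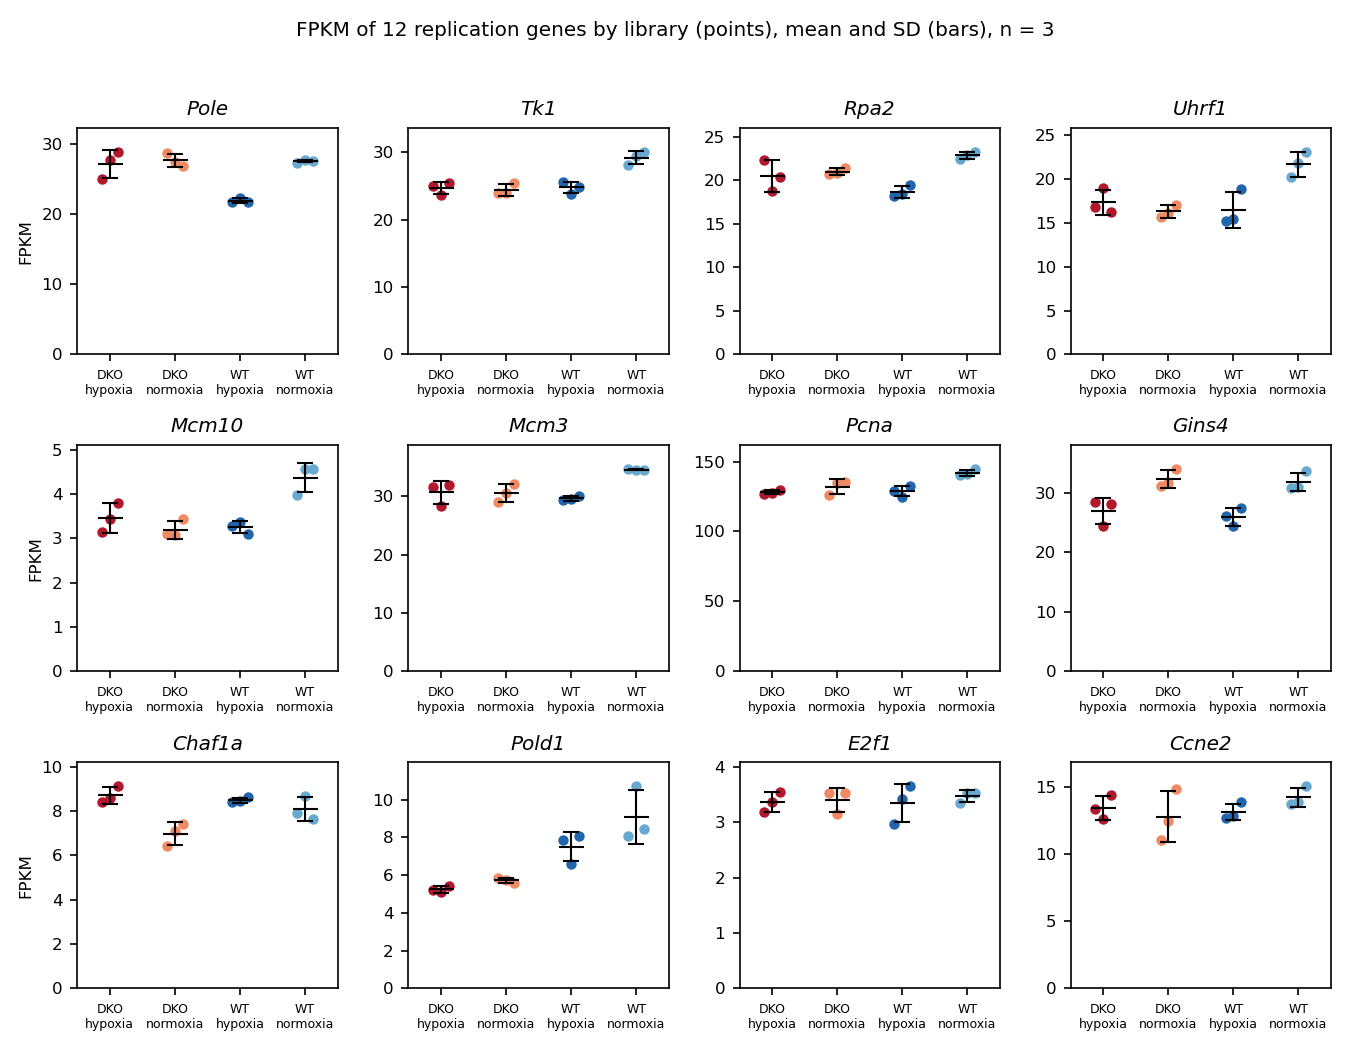
FPKM of 12 replication genes in each library (points) with the group mean and SD (bars, n = 3), for double knockout hypoxia, double knockout normoxia, wild type hypoxia and wild type normoxia from left to right, on axes that start at 0. Wild type normoxia is highest for Tk1, Rpa2, Uhrf1, Mcm10, Mcm3 and Pcna, Pole is low in wild type hypoxia (21.7 to 22.4 FPKM), and Pold1 is low in both double knockout groups (5.08 to 5.82 FPKM).

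In double knockout cells, hypoxia lowered Gins3, Gins4 and Rfc3 and raised Chaf1a, and the other 42 members were not called. Of all genes tested, 19.6% were called lower and 19.6% higher, so the share of members called was below that of all genes in both directions. The member log2 fold changes were positive in 22 and negative in 24, with a median of -0.00 against 0.01 over all genes tested. Gins3 (log2 fold change -0.28, SE 0.07, adjusted p = 0.00505) and Gins4 (log2 fold change -0.25, SE 0.06, adjusted p = 0.00819) were lower without overlap of the groups. Rfc3 fell (log2 fold change -0.29, SE 0.10, adjusted p = 0.0368) although double knockout hypoxia library 3 overlapped normoxia, and the call was lost in 8 of 22 alternatives, including without double knockout hypoxia library 1 or 2 or normoxia library 1 or 3 (highest adjusted p = 0.149). Chaf1a, the large CAF-1 subunit, had 8.41, 8.59 and 9.12 FPKM in double knockout hypoxia, 6.41, 7.10 and 7.42 in double knockout normoxia, 8.41, 8.44 and 8.62 in wild type hypoxia and 7.93, 8.69 and 7.62 in wild type normoxia. Its double knockout hypoxia libraries lay above its double knockout normoxia libraries (log2 fold change 0.28, SE 0.06, adjusted p = 0.00334), and in level they overlapped both wild type groups. The FPKM sums of the double knockout normoxia libraries ranged from 646666 to 705129. The count of higher calls was 2 without double knockout hypoxia library 1, where higher calls over all genes tested numbered 1822 (2233 with all libraries). At an unadjusted p under 0.05, 2 members were higher and 5 lower, against 24.2% and 23.8% of all genes tested.

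The difference between the hypoxia responses, double knockout minus wild type, passed the limma threshold for 0 of the 46 members in either direction. Its median SE over the members was 0.09 on the log2 scale, against 0.07 in each comparison of groups. Of all genes tested, 0.123% were called lower and 0.0703% higher for this difference. At an unadjusted p under 0.05, 18 members were higher and 0 lower, against 7.79% and 8.21% of all genes tested. The estimate was positive in 44 of 46, with a median of 0.17 against 0.00 over all genes tested. The smallest adjusted p were 0.0913 for Pole (difference 0.29, 95% interval 0.14 to 0.44), 0.0971 for Mcm10 (0.42, 0.20 to 0.65) and 0.0978 for Uhrf1 (0.46, 0.21 to 0.71). The most abundant Pole transcript (71.8% of the gene) averaged 18.8 FPKM in double knockout hypoxia and 21.5 in normoxia. In wild type hypoxia and normoxia it averaged 15.6 and 19.0 FPKM. That of Uhrf1 averaged 7.98 and 9.59 FPKM in double knockout, and 9.70 and 11.6 FPKM in wild type. Both were lower in hypoxia in each genotype. The most abundant Mcm10 transcript was higher in double knockout (3.16 against 2.77 FPKM) and lower in wild type (2.85 against 3.83). For Gins3 and Gins4 the differences were 0.01 (95% interval -0.20 to 0.21) and 0.03 (95% interval -0.17 to 0.23). A call in wild type and not in double knockout cells is therefore not shown to differ between the genotypes for any single member. With array weights Uhrf1 alone was called.

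Under normoxia, double knockout cells had less RNA of 7 replication genes than wild type cells and more of none. The 7 were Pold1, Tk1, Mcm10, Uhrf1, Rrm1, Mcm4 and Mcm3. Of all genes tested, 4.32% were called lower and 3.84% higher. The log2 fold change was negative in 42 of 46 members, with a median of -0.13 against -0.01 over all genes tested, and in 21 members all double knockout libraries lay below all wild type libraries, as in 14.1% of all genes tested. At an unadjusted p under 0.05, 19 members were lower and 0 higher, against 11.6% and 9.88% of all genes tested. This comparison and hypoxia in wild type use the same wild type normoxia libraries, so the genes called lower in both (Mcm3, Mcm10, Rrm1, Tk1 and Uhrf1) are not independent results. The count of lower calls was 3 without wild type normoxia library 2 and 3 without wild type normoxia library 3, 4 in a fit of the normoxia libraries alone and 4 with the most abundant transcript of each gene. Over all genes tested, lower calls numbered 492 in the main fit and 294 and 338 without these libraries in turn. They numbered 311 with the normoxia libraries alone and 421 with the most abundant transcript. The macrophage and mural marker sums given above were higher in the double knockout libraries, and their part in these differences was not tested.

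Pold1, the catalytic subunit of polymerase delta, showed the largest genotype difference of any member, at both oxygen levels. It had 5.23, 5.08 and 5.44 FPKM in double knockout hypoxia, 5.82, 5.76 and 5.56 in double knockout normoxia, 7.84, 6.61 and 8.07 in wild type hypoxia and 8.06, 10.7 and 8.46 in wild type normoxia. All 6 double knockout libraries lay below all 6 wild type libraries (in normoxia log2 fold change -0.58, SE 0.09, adjusted p = 0.00242; in hypoxia log2 fold change -0.44, SE 0.09, adjusted p = 0.00773). Wild type normoxia library 2 was the highest of the 12, and both Pold1 calls held under every alternative, including without that library. The accessory subunits Pold2 and Pold3 were not called, with log2 fold changes in normoxia of -0.05 and -0.02. Pold1 lies on chromosome 7, 16.9 Mb from Map3k10 in GENCODE M21 (GRCm38). Nearer to Map3k10 lie Ccne1 (10.4 Mb) and Lig1 (14.3 Mb), with log2 fold changes of -0.14 and -0.03 in hypoxia and -0.21 and -0.26 in normoxia, not called. On chromosome 19, Pola2 lies 0.238 Mb and Fen1 4.50 Mb from Map3k11, with log2 fold changes of -0.07 and 0.13 in hypoxia and -0.10 and -0.09 in normoxia, not called either. Farther from Map3k10 on chromosome 7 lie E2f8 (21.2 Mb), Pold3 (72.4 Mb) and Rrm1 (74.8 Mb). Their log2 fold changes were 0.06, -0.05 and 0.03 in hypoxia and -0.27, -0.02 and -0.25 in normoxia, where Rrm1 was called lower. Lig1 was called in normoxia with array weights, without double knockout normoxia library 1 and without wild type normoxia library 1. The part of position in the Pold1 difference was not tested.

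For the other normoxia calls, the double knockout means were lower by modest amounts. Tk1 averaged 24.5 ± 0.919 FPKM in double knockout and 29.2 ± 0.971 FPKM in wild type cells (SD, n = 3 each; log2 fold change -0.25, SE 0.04, adjusted p = 0.00476). Mcm10 averaged 3.20 ± 0.204 FPKM in double knockout and 4.37 ± 0.329 FPKM in wild type cells (log2 fold change -0.36, SE 0.07, adjusted p = 0.0117). Uhrf1 averaged 16.3 ± 0.691 FPKM in double knockout and 21.7 ± 1.41 FPKM in wild type cells (log2 fold change -0.39, SE 0.08, adjusted p = 0.012). In these 3 genes, and in Rrm1 and Mcm3, the groups did not overlap. Rrm1 averaged 32.02 ± 1.87 FPKM in double knockout and 38.2 ± 1.95 FPKM in wild type cells (log2 fold change -0.25, SE 0.06, adjusted p = 0.0237). Mcm4, a ring subunit, had 14.7, 13.9 and 14.3 FPKM in double knockout hypoxia, 13.8, 14.1 and 12.2 in double knockout normoxia, 14.3, 13.7 and 14.05 in wild type hypoxia and 14.5, 16.8 and 16.7 in wild type normoxia. Its double knockout normoxia libraries lay below its wild type normoxia libraries (log2 fold change -0.24, SE 0.06, adjusted p = 0.0391), a call lost in 14 of 22 alternatives (highest adjusted p = 0.142). Mcm3 was close to the threshold (-0.17, adjusted p = 0.0487) and its call was lost in 16 of 22 (highest adjusted p = 0.139). The Mcm10 call was lost without wild type normoxia library 2 (adjusted p = 0.0511) and with its most abundant transcript (adjusted p = 0.0699). That of Uhrf1 was lost without wild type normoxia library 3 (adjusted p = 0.0528) and with its most abundant transcript (adjusted p = 0.271). That of Rrm1 was lost in 5 of 22 alternatives, including without wild type normoxia library 2 or 3 or double knockout normoxia library 1 or 2 (highest adjusted p = 0.0978).

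Under hypoxia the genotypes were close, with Pole higher and Pold1 lower in double knockout cells and the other 44 members not called. The marker sums of macrophage and mural cells stood higher in the double knockout here too. Of all genes tested, 8.42% were called lower and 7.68% higher, and the median member log2 fold change was 0.03 against -0.00 over all genes tested. Pole averaged 27.2 ± 1.99 FPKM in double knockout and 21.9 ± 0.387 FPKM in wild type hypoxia (SD, n = 3 each; log2 fold change 0.30, SE 0.05, adjusted p = 0.00185). Its double knockout hypoxia libraries overlapped both normoxia groups and lay above wild type hypoxia. At an unadjusted p under 0.05, 5 members were higher and 1 lower, against 13.7% and 15.6% of all genes tested. The count of higher calls was 3 without double knockout hypoxia library 2 and 2 without wild type normoxia library 2, through genes outside the calls given here. Higher calls over all genes tested numbered 649 and 880 there, and 874 with all libraries. The median SE of a member log2 fold change was 0.07 on the log2 scale.

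**Figure D4:**
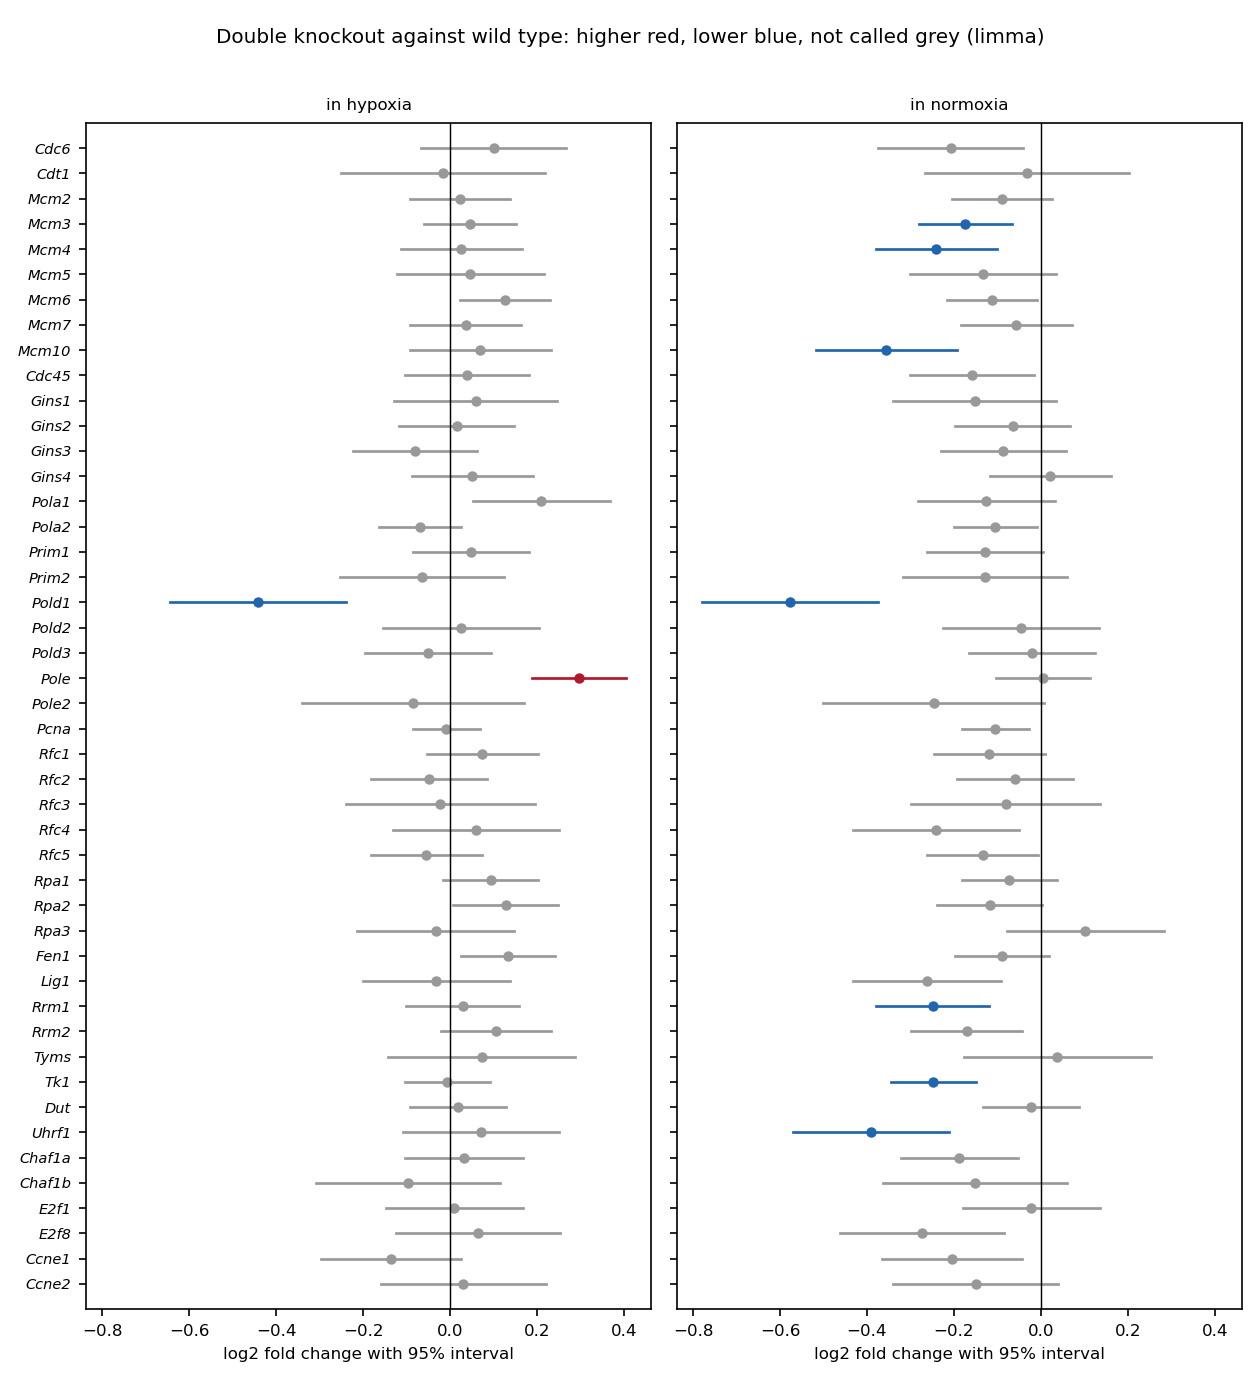
Log2 fold change of double knockout against wild type for each replication gene in hypoxia (left) and normoxia (right), on log2(FPKM + 1), with points for estimates and lines for 95% intervals of the limma fit (3 libraries a group). In hypoxia Pole was called higher (red) and Pold1 lower (blue); in normoxia 7 genes were called lower and none higher.

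Of the 46 members, 25 were called in none of the 5 comparisons. These were Cdc6, Cdt1, Mcm5, Mcm6, Mcm7, Pola1, Pola2, Prim1, Prim2, Pold2, Pold3, Pole2, Rfc1, Rfc2, Rfc5, Rpa3, Lig1, Rrm2, Tyms, Dut, Chaf1b, E2f1, E2f8, Ccne1 and Ccne2. The share of all genes tested that were called in no comparison was not counted, so 25 of 46 cannot be read as many or few. Mcm6 had log2 fold changes of -0.14 for hypoxia in wild type (adjusted p = 0.0618) and 0.10 for hypoxia in double knockout cells (adjusted p = 0.103). Pola1, the catalytic subunit of polymerase alpha, had -0.21 in wild type (adjusted p = 0.0604) and 0.13 in double knockout cells (adjusted p = 0.187). Cdt1, Prim2, Pole2, Rpa3, Lig1, Tyms, Chaf1b, E2f1 and Ccne2 overlapped between the groups in all 4 comparisons of groups.

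The deposited rows split 26 of the members over several transcripts, 97 rows in all, while 20 had a single row. In 18 of those 26 the most abundant transcript made up at least 80% of the gene. With that transcript in place of the summed gene, 15 members were called lower in wild type hypoxia, of which 14 were among the 18, and the calls of Mcm2, Mcm10, Rfc4 and Uhrf1 were lost while that of Pold1 was gained. Of the 11086 genes tested in this way, 1015 were called lower. Mcm10 has 88.2% of its level in 1 transcript, and its adjusted p was 0.052 there. For hypoxia in double knockout cells, using the most abundant transcript added lower calls of Pole and E2f1.

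Other genes of the pathway were counted from lists that do not overlap with the 46. Of 53 tested genes of origin licensing, fork protection, replication-linked repair and DNA methylation, 20 were lower and none higher in wild type hypoxia (26 and 1 at an unadjusted p under 0.05), with Exo1 (-0.59), Brca1 (-0.42) and Msh6 (-0.36) among those with the smallest adjusted p. Shares over all genes tested were 10.4% lower and 10.5% higher there (17.6% and 16.8% at an unadjusted p under 0.05). The median log2 fold change of the 53 was -0.17 in wild type hypoxia, against 0.00 over all genes tested. Msh6, a DNA mismatch repair gene, fell in double knockout hypoxia as well (-0.39). There 8 of the 53 were lower and 4 higher, shares below the 19.6% of all genes tested called in each direction. In normoxia 5 of the 53 were lower in double knockout than in wild type cells, among them the maintenance methyltransferase Dnmt1 (-0.36) and the topoisomerase Top2a (-0.31), and none was higher (12 and 0 at an unadjusted p under 0.05). The shares over all genes tested were 4.32% lower and 3.84% higher (11.6% and 9.88% at an unadjusted p under 0.05). In hypoxia none of the 53 differed between genotypes by limma, where 7.68% of all genes tested were called higher and 8.42% lower. At an unadjusted p under 0.05 there were 4 higher and 3 lower, against 13.7% and 15.6% of all genes tested.

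Among 26 tested E2F and RB regulators, 2 were called higher and 2 lower by limma in wild type hypoxia, against 10.5% and 10.4% of all genes tested. Hypoxia raised the cyclin-dependent kinase inhibitors Cdkn1b (log2 fold change 0.66, SE 0.06, adjusted p = 1.24e-05) and Cdkn1a (log2 fold change 0.31, SE 0.04, adjusted p = 6.20e-04) in wild type and lowered Rbl2 (-0.26) and Lin52 (-0.33). In double knockout hypoxia 9 of the 26 were higher and 4 lower, where 19.6% of all genes tested were called in each direction, with Cdkn1b (0.42) and Cdkn1a (0.32) again among those that rose. Cdkn1a was higher in double knockout than in wild type cells in hypoxia (0.34, adjusted p = 3.32e-04) and in normoxia (0.33, adjusted p = 5.80e-04). Other regulators were lower in double knockout cells. In hypoxia 2 of the 26 were higher and 1 lower, against 7.68% and 8.42% of all genes tested. In normoxia 1 was higher and 4 lower, against 3.84% and 4.32%. Of 15 S phase checkpoint genes, 2 were lower and 0 higher in wild type hypoxia, Etaa1 (-0.46) and Rad1 (-0.24), against 10.4% and 10.5% of all genes tested. In double knockout hypoxia 6 were lower and 1 higher (19.6% of all genes in each direction). Between genotypes 2 of the 15 were lower in double knockout and 0 higher in hypoxia, against 8.42% and 7.68% of all genes, and 0 were called in normoxia.

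In double knockout hypoxia, 11 of 28 tested mitosis and G2/M genes were higher, 1 was lower and 16 were not called, where 19.6% of all genes tested were called in each direction. Of the 46 replication genes 1 was higher and 3 lower there. In wild type hypoxia 7 of the 28 were lower and none higher by limma (9 and 0 at an unadjusted p under 0.05). The shares of all genes tested there were 10.4% lower and 10.5% higher (17.6% and 16.8% at an unadjusted p under 0.05). The median log2 fold change of the 28 was 0.18 in double knockout hypoxia and -0.12 in wild type hypoxia, against 0.01 and 0.00 over all genes tested. Cdc20 (0.25), Ccnb1 (0.25) and Kif11 (0.26), which act in mitotic exit, entry and spindle assembly, were among those that rose in double knockout hypoxia. In normoxia 17 of the 28 were lower in double knockout than in wild type cells and none higher, with Ube2c (-0.44) and Tpx2 (-0.33) among them, where 4.32% and 3.84% of all genes were called. At an unadjusted p under 0.05, 25 were lower and 0 higher, against 11.6% and 9.88% of all genes tested. In hypoxia 1 of the 28 was lower in double knockout than in wild type cells and 0 higher, against 8.42% and 7.68% of all genes tested. For the difference between the hypoxia responses none of these 4 lists had a called gene by limma. At an unadjusted p under 0.05 the difference was higher in 19 and lower in 0 of the 28 mitosis genes, against 7.79% and 8.21% of all genes tested. It was higher in 12 and lower in 0 of the 53 other replication genes. The counts were 7 and 1 of the 26 regulators, and 2 and 2 of the 15 checkpoint genes. The lists were not tested against each other.

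**Figure D5:**
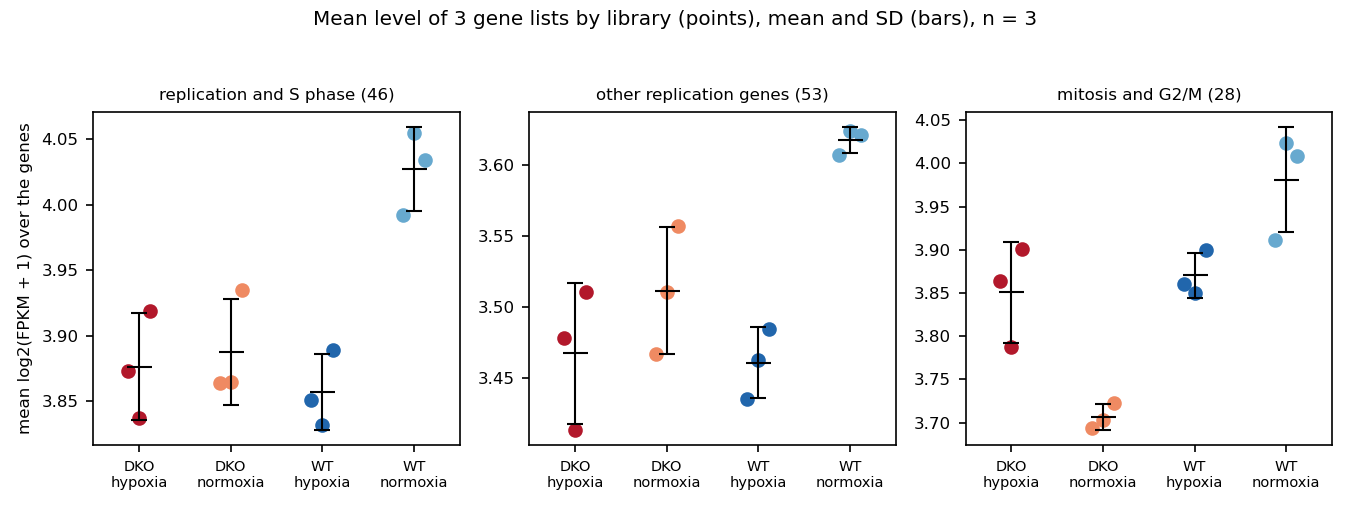
Mean log2(FPKM + 1) over the 46 replication and S phase genes (left), 53 other replication genes (middle) and 28 mitosis and G2/M genes (right) in each library (points), with the group mean and SD (bars, n = 3), for double knockout hypoxia, double knockout normoxia, wild type hypoxia and wild type normoxia; the axes do not start at 0. The 46 genes sit at 3.84 to 3.92, 3.86 to 3.93, 3.83 to 3.89 and 3.99 to 4.06 in these groups, while the mitosis genes are lowest in double knockout normoxia (highest library 3.72).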

How the data were processed

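The labels' protocols give RNeasy Plus extraction and NEBNext Ultra libraries, and the submitters' processing notes name TopHat2. The authors deposited a table of FPKM (fragments per kilobase of transcript, scaled to mapped fragments) for 52655 transcripts. Aligner version, genome build, annotation and quantifier: not given in the sources used here.

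For each of 23422 gene identifiers the FPKM of its transcripts were added up. The 11378 genes averaging 1 FPKM or more entered the test, on the scale log2(FPKM + 1); FPKM are not counts, so no count test was run. The model, in limma 3.58.1 (R 4.3.3), had a coefficient for each of the 4 groups, used every library, left 8 residual degrees of freedom and let the prior variance follow the mean level. Adjustment was by Benjamini-Hochberg over all genes of a comparison, and calls are at 0.05. The procedure was also run on simulated data, with independent noise for each gene and changes added in wild type hypoxia alone. No result given here rests on that run. Depth is known only as an estimate from the steps between low FPKM values of single-transcript genes, 21200000 to 25900000 fragments a library. Promoter windows came from RefSeq (GRCm38.p6) and gene positions from GENCODE M21.

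The members and lists were chosen with earlier results of these data known. Values in every library are given for up to 6 called members in each direction per comparison, by smallest adjusted p, and for Mcm5, Pcna, Cdc6, Rrm2, E2f1, E2f8, Ccne1 and Ccne2 whatever their result; of each other list, up to 4 called genes by smallest adjusted p. 1 further gene of such a list is not reported here, and Mcm3 is shown in full outside this rule. Alternatives changed the pseudocount (0.1), the filter (none, or an average of 5 FPKM), the scaling (quantile, equal medians), the model (replicate block, no trend, array weights, only the libraries compared), the summing (top transcript of each gene) and the libraries (each left out in turn).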

Additional observations from a re-analysis of the deposited data

How the results depend on the processing

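No call of a single member was reversed under any of the alternatives. Of the 31 calls, 14 held under every alternative and 17 were lost under at least 1. Leaving out 1 library at a time gave 11 to 18 lower calls for hypoxia in wild type (18 with all libraries), 1 to 2 higher and 2 to 4 lower for hypoxia in double knockout (1 and 3), 3 to 8 lower for double knockout against wild type in normoxia (7), and 1 to 3 higher and 1 to 1 lower in hypoxia (1 and 1). Over all genes tested, these fits gave 639 to 1166 lower calls for hypoxia in wild type (1178 with all libraries). For hypoxia in double knockout they gave 1822 to 2251 higher and 1855 to 2256 lower (2233 and 2235). For double knockout against wild type they gave 294 to 493 lower in normoxia (492), and 569 to 903 higher and 606 to 970 lower in hypoxia (874 and 958). The other alternatives gave 13 to 23 lower calls of members for hypoxia in wild type, and 860 to 1393 over all genes tested. Hypoxia in double knockout gave 2 higher calls with quantile normalization and 2 with array weights, and 5 lower calls with the most abundant transcript. Double knockout against wild type in normoxia gave 4 lower calls with the most abundant transcript and 4 with the normoxia libraries alone. In hypoxia it gave 2 higher calls with quantile normalization, 2 with equal library medians and 3 with array weights. The difference between the responses gave 1 higher call with array weights and 0 under the others. The cause of these changes was not tested. Same-numbered libraries of different groups did not pair: their deviations correlated at -0.084 to 0.167 over 18 pairs, with 1 over 0.1, and 6 of 18 correlated best with their own number. With the replicate number as a block, hypoxia in wild type gave 16 lower calls, hypoxia in double knockout 1 higher and 3 lower, double knockout against wild type 5 lower in normoxia and 1 higher and 1 lower in hypoxia, and the difference 0. With 3 libraries a group, the median SE of a member on the log2 scale was 0.07 in each comparison of groups and 0.09 for the difference between the responses. FPKM keep no exact depth.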
